A study of Caenorhabditis elegans with 12 samples.

Results

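Nematode cuticle collagens whose gene symbol begins with col- were compared between wild-type *C. elegans* L1 larvae given a mixture of ascarosides and larvae that were not. Of 46726 gene rows, 156 carried such a symbol, and 112 of these averaged at least 5 normalized counts over the 6 libraries and were tested, among 14965 genes tested in all. With ascarosides 17 of the 112 (15.2%) rose at an adjusted p under 0.05 (limma), against 2.06% of all genes tested. None fell, against 1.46%. The largest of the 17 rises were those of col-156 at 2.30-fold, col-162 at 2.08-fold, col-80 at 1.97-fold and col-77 at 1.79-fold. Of the 17 calls, 0 held in a limma fit with no trend of variance on level. By edgeR col-106 was called lower, and by DESeq2 col-106 and col-46. The most abundant transcripts of the family per kilobase of exon, those of col-166, col-125 and col-107, did not pass the test.

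The cuticle is the collagen exoskeleton that the epidermis secretes beneath the old one before every moult. Cuticle collagens are short proteins with Gly-X-Y repeats flanked by cysteines. They are hydroxylated on prolines, trimmed at both ends, assembled into trimers and cross-linked in the extracellular matrix. Their genes are transcribed in waves within each moulting cycle, and different members are used in larvae, dauers and adults. For most col- genes no role beyond membership of the family is known, so a role is given below only where there is one. Ascarosides are glycolipid pheromones by which larvae sense crowding and are directed towards the dauer diapause.

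The series holds 12 samples, of which the 6 from strain N2 were used here. Synchronized larvae in liquid culture on *E. coli* HB101 were divided 6 h after hatching and harvested 3 h later. Treated libraries 1 to 3 are N2 larvae with ascr#2, ascr#3 and ascr#8 added, control libraries 4 to 6 are N2 larvae given only the ethanol carrier, and a normalized count, used throughout, is a read count divided by the library's size factor. The labels give a total of 5 µM ascaroside, whereas the study's methods give a lower total, so the dose is uncertain. By the methods, the cultures were divided from 1 population, so that p-values measure the spread between cultures of that population. The RNA was from whole larvae, in which fewer epidermal cells and less RNA per cell cannot be told apart.

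Reads assigned to genes numbered 11133417 to 19116807 per treated library and 14237868 to 18915816 per control library. The ribosomal gene rrn-3.1 took 8.18 to 15.2% of gene counts in treated libraries and 10.001 to 17.04% in control libraries. The epidermal markers dpy-7, elt-3 and lin-26 were detected in all 6 libraries. Normalized counts of elt-3 were 598, 659 and 601 in treated libraries, against 562, 499 and 591 in control libraries. Those of dpy-7 were 1974, 2143 and 2012, against 2500, 2226 and 2558. Those of lin-26 were 513, 586 and 655, against 829, 645 and 812. The log2 fold changes were 0.17 for elt-3, -0.25 for dpy-7 and -0.38 for lin-26 (adjusted p = 0.547, 0.257 and 0.149, limma). At an unadjusted p under 0.05, dpy-7 and lin-26 were lower, against 7.13% of all genes tested. Together these 3 summed to 3086 to 3388 in treated libraries and 3370 to 3962 in control libraries. Sperm transcripts summed to 0.843 to 2.61 in treated libraries and were at 0 in control libraries, with msp-3 at 0 throughout. Yolk transcripts summed to 2.61 to 10.5 in treated libraries and to 14.8 to 21.3 in control libraries. Of the intestinal markers 1 of 3 rose, ges-1, an esterase of the gut (1120 ± 75.6 against 649 ± 10.1, log2 fold change 0.78), and the summed intestinal level was 9191 to 10217 in treated libraries and 8727 to 9025 in control libraries. Body wall muscle markers summed to 61982 to 78115 in treated libraries and 47436 to 80073 in control libraries. Of these, the muscle myosin gene myo-3 had 5808, 6108 and 6787 normalized counts in treated libraries, against 5681, 3742 and 4119 in control libraries, with no overlap (log2 fold change 0.49, adjusted p = 0.0647, limma), and DESeq2 called it higher. Pharynx muscle markers summed to 16724 to 20193 in treated and 12697 to 20089 in control libraries, neuronal markers to 4260 to 4684 in treated and 4216 to 4283 in control libraries, and germline markers to 560 to 630 in treated and 431 to 588 in control libraries. The part of these tissues in the collagen values was not tested.

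Summed over the family, col- genes had more counts with ascarosides. Summed normalized counts of all 156 col- genes were 206571, 206772 and 195124 in treated libraries 1 to 3, against 171563, 162428 and 163006 in control libraries 4 to 6. Every treated library lay above every control library. The means were 202822 ± 6668 and 165666 ± 5115 (SD, n = 3 each), a ratio of 1.22, and the exact two-sided permutation test gave p = 0.1, the smallest that 3 against 3 libraries can give. As a share of all gene counts, col- genes made up 1.31% ± 0.0314 in treated libraries and 1.08% ± 0.0800 in control libraries, and without ribosomal RNA genes in the total the shares were 1.46 to 1.51% and 1.21 to 1.296%. The total is carried by few genes: the highest member held 8.96% of the family's counts, the highest 5 held 36.7% and the highest 10 held 61.2%. The 17 members at an adjusted p under 0.05 (limma), picked for their change, summed to means of 64695 with and 39819 without ascarosides. The other 139 summed to 138127 ± 4283 and 125847 ± 3293, a ratio of 1.10.

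**Figure D1:**
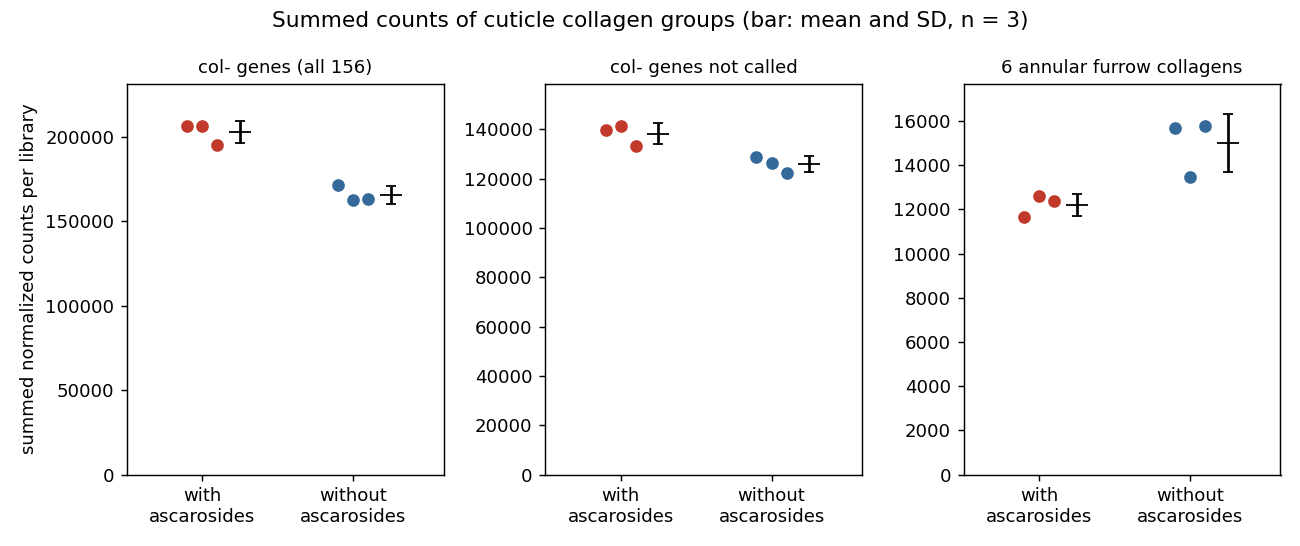
Summed normalized counts per library (vertical axes, from 0) for all 156 col- genes, for the 139 col- genes that were not called, and for 6 annular furrow collagens, with the larvae given ascarosides left of those without. Points are libraries and bars are the mean and SD (n = 3); all 3 treated libraries sit above the control libraries in the first 2 panels, and all 3 sit below them in the last.

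Of the 112 tested members, 17 (15.2%) were called higher, against 2.06% of all genes tested. None were called lower, against 1.46% of all genes tested. An unadjusted p under 0.05 was reached by 32 of the 112 members above 0, against 8.05% of all genes tested, and by 7 below 0, against 7.13%. On the recovered whole reads, edgeR called 18 members higher, against 2.09% of all genes, and 1 lower, col-106, against 1.5%. DESeq2 called 17 members higher and 2 lower, col-106 and col-46, against 2.67% and 2.12% of the 13224 genes to which it gave an adjusted p. All 3 treated libraries lay above all 3 control libraries for 32 members (28.6%), against 9.78% of all genes, and below them for 8 members (7.14%), against 9.53%. The median log2 fold change was 0.11 over the tested members and 0.0019 over all genes tested, and 63.4% of members were above 0, against 50.3% of all genes. The 17 calls ranged from 0.47 to 1.20 on the log2 scale. A limma fit with no trend of variance on level ended all 17 calls (adjusted p 0.0769 to 0.300) and left 1 gene called in the whole table, and without treated library 1 the number higher was 11.

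**Figure D2:**
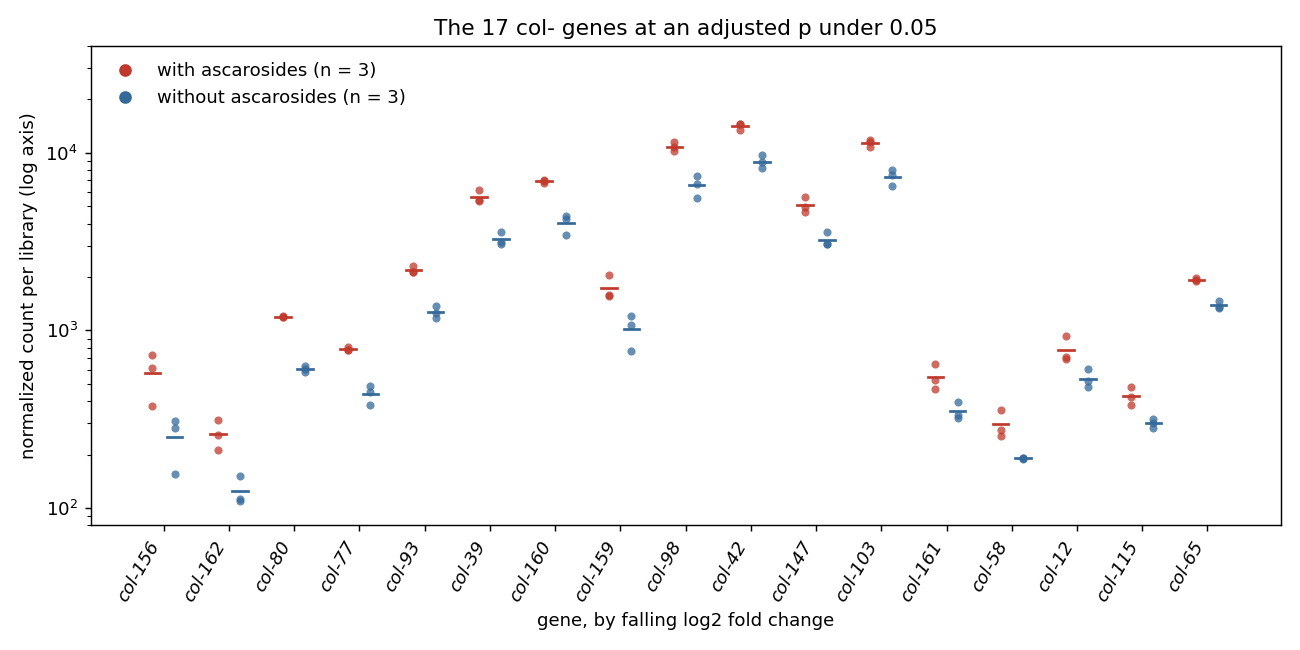
Normalized counts per library (log axis) of the 17 col- genes called higher, ordered by log2 fold change, with treated libraries to the left of control libraries for each gene. Points are libraries and dashes are group means (n = 3); the 2 groups do not overlap in any of these genes, and col-156 has the widest spread within its groups while the points of col-80 nearly coincide.

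The called collagen with the smallest adjusted p was col-80, on chromosome II. Its normalized counts were 1192, 1189 and 1211 in treated libraries 1 to 3, against 629, 608 and 585 in control libraries 4 to 6. The groups stood far apart compared with the spread within them. The log2 fold change was 0.98 (SE 0.106, adjusted p = 5.72e-05, limma), and it lay between 0.95 and 1.01 under every alternative run. Its neighbour col-39 was present at 6143, 5400 and 5380 normalized counts in treated libraries, against 3583, 3141 and 3080 in control libraries. The log2 fold change of col-39 was 0.79 (SE 0.109, adjusted p = 0.00042, limma). Another chromosome II collagen, col-77, had 806, 774 and 777 counts with ascarosides and 452, 381 and 489 without, a log2 fold change of 0.84 (SE 0.123, adjusted p = 0.000672, limma). For both genes the lowest treated library lay well above the highest control library.

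The 2 members with the largest fold changes were less even. Normalized counts of col-156 were 728, 615 and 374 in treated libraries 1 to 3, against 283, 156 and 310 in control libraries 4 to 6. Treated library 3 was only a little above control library 6, and control library 5 was low. The log2 fold change was 1.20 (SE 0.239, adjusted p = 0.00726, limma), and the call ended without treated library 1 (adjusted p = 0.0707), without treated library 2 (0.0844), with robust moderation (0.1002) and with DESeq2 (0.0580). Its exons share bases with those of mig-17, a gene on the opposite strand. The methods describe no step that would keep the strand of a read, and whether reads were counted by strand is not stated. Reads from the shared bases may therefore not be separable. For col-162 the counts were 313, 258 and 211 in treated libraries, against 112, 110 and 151 in control libraries, a log2 fold change of 1.06 (SE 0.183, adjusted p = 0.00243, limma). All treated values of col-162 were above all control values.

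On chromosome III, col-93 had 2125, 2123 and 2317 normalized counts in treated libraries, against 1371, 1178 and 1250 in control libraries (log2 fold change 0.79, SE 0.106, adjusted p = 0.000346, limma). The more abundant col-98 had 10804, 11494 and 10244 with ascarosides, against 7414, 5582 and 6675 without (0.73, SE 0.123, adjusted p = 0.00182). Neither gene's groups overlapped. A further 4 rises were among abundant transcripts. Of these, col-42 on chromosome V, the fifth highest tested member in normalized counts per kilobase of exon, had 14471, 14507 and 13474 counts in treated libraries, against 9729, 8188 and 8833 in control libraries, a log2 fold change of 0.67 (SE 0.116, adjusted p = 0.00244). On chromosome IV, col-103 averaged 11364 ± 556 and 7331 ± 730 normalized counts (SD, n = 3 each) with and without ascarosides, a log2 fold change of 0.64. On chromosome V, col-147 averaged 5080 ± 501 and 3238 ± 288 with a log2 fold change of 0.65, and col-160 averaged 6905 ± 141.5 and 4035 ± 529 with a log2 fold change of 0.78. The exons of col-103 overlap those of the glutathione transferase gene gst-40, and those of col-147 overlap T06E4.5. Both are on the opposite strand, so the limit given for col-156 applies.

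The remaining 6 calls were less stable to the loss of a library. The chromosome V gene col-159 averaged 1736 ± 273 and 1020 ± 228 normalized counts with and without ascarosides (log2 fold change 0.78, adjusted p = 0.00603, limma), and its call ended without treated library 1 (0.0648). The call of col-161 (0.63, adjusted p = 0.016) ended without treated library 1 (0.172) or treated library 3 (0.0640). Treated library 1 was the highest of the 6 for both genes. The calls of col-58 (0.62, adjusted p = 0.0318), col-115 (0.50, adjusted p = 0.0482) and col-65 (0.47, adjusted p = 0.0124) ended without any 1 of the treated libraries or control library 6, at 0.0688 to 0.280 for col-58, 0.0768 to 0.326 for col-115 and 0.0606 to 0.106 for col-65. The call of col-12 (0.52, adjusted p = 0.0432) ended without any 1 of the treated libraries (0.0883 to 0.326), without control library 5 (0.0590) and under quantile normalization (0.0527). The groups of col-65 were nonetheless tight, at 1924, 1962 and 1887 in treated libraries, against 1340, 1464 and 1359 in control libraries. The remaining 10 of the 17 calls held in all 6 fits that left out 1 library. Of the 17 called genes 11 share no exon bases with another annotated gene. The exons of col-115 share some with rig-4 on the opposite strand, with the limit given for col-156.

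Another 15 members had every treated library above every control library without being called, with log2 fold changes of 0.13 (col-144) to 0.75 (col-141). Among the more abundant of them, col-91 on chromosome III had 2313, 1864 and 1615 normalized counts in treated libraries, against 1583, 1036 and 1484 in control libraries (0.51, SE 0.154, adjusted p = 0.0897, limma). The gap between its groups was narrow, since treated library 3 and control library 4 nearly met.

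Close to the threshold on its outer side were col-170 and col-106, and on its inner side col-12 and col-115. The chromosome X gene col-170 had 270, 373 and 348 normalized counts in treated libraries, against 223, 211 and 236 in control libraries (log2 fold change 0.55, SE 0.150, adjusted p = 0.0540, limma). Its groups did not overlap, and it was called higher by edgeR (adjusted p = 0.0388) and DESeq2 (0.0295). For col-106, on chromosome IV, the counts were 80.9, 90.3 and 91.3 in treated libraries, against 105, 259 and 166 in control libraries. The control libraries of col-106 differed from each other by far more than the treated ones. The log2 fold change was -0.91 (SE 0.25, adjusted p = 0.0544, limma), it was called lower by edgeR (0.0383) and DESeq2 (0.00933), and without control library 4 the log2 fold change was -1.24 with an adjusted p of 0.000386. That last fit called 1436 genes in the whole table, against 527 with all 6 libraries.

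A further 7 members had every treated library below every control library, all short of the threshold, among them col-149, col-46, col-76 and col-154 (-0.17, adjusted p = 0.564, limma). Normalized counts of col-149 were 1337, 1757 and 1447 with ascarosides, against 1961, 1861 and 2161 without (log2 fold change -0.40, adjusted p = 0.0748, limma). Those of col-46 were 269, 330 and 318, against 407, 391 and 485 (-0.48, adjusted p = 0.0673). The exons of col-46 and its neighbour col-47 overlap on opposite strands, so that reads of the 2 genes may not be separable. Those of col-76 were 302, 309 and 312, against 375, 409 and 425 (-0.39, adjusted p = 0.118). The number of members called lower was 5 without control library 4 (col-106, col-149, col-46, col-47 and col-76) and 2 without control library 5 (col-149 and col-46). Calls over all 14965 genes tested, in both directions, rose from 527 with all 6 libraries to 1436 without control library 4. Without control library 5 there were 560.

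The 4 most abundant members per kilobase of exon, col-166, col-125, col-107 and col-17, did not pass the test. The next, col-42, was called higher. The most abundant per kilobase, col-166 on chromosome X, had 17668, 18367 and 17637 normalized counts in treated libraries, against 15249, 15297 and 14876 in control libraries. Its groups did not overlap, but the log2 fold change was 0.24 (SE 0.117, adjusted p = 0.346, limma). In col-125 the means were 13756 ± 510 with and 13593 ± 652 without ascarosides, a log2 fold change of 0.02, which was -0.11 under quantile normalization. In col-17 they were 14045 ± 843 and 13340 ± 554 (0.07, and -0.07 under quantile normalization). In col-107 they were 12615 ± 476 and 11003 ± 779, a log2 fold change of 0.20 (adjusted p = 0.453).

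Calls were not spread evenly over expression level, nor was the precision. None of the 32 members averaging 5 to 50 normalized counts was called by limma, edgeR or DESeq2, although an unadjusted p under 0.05 was reached by 2 above and 2 below 0, with a median SE of 0.552 on the log2 scale. DESeq2 gave an adjusted p to 13224 of the 14965 genes and gave none to col-120, which is in this range. A gene without one could not be called by DESeq2. Of 38 members at 50 to 500 counts 5 were called higher, where 1.53% of all genes were. Of 30 members at 500 to 5000 counts 8 were called higher, where 4.16% of all genes were, and of 12 members above 5000 counts 4 were, where 6.68% of all genes were. In each of these 3 ranges the share of members called higher was above that of all genes, and the median SE of the members was 0.112 to 0.169. The widest fitted changes were in low members with large errors, among them col-152 (2.02, SE 0.803, adjusted p = 0.221) and col-35 (-1.47, SE 0.579, adjusted p = 0.215), neither past the threshold.

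**Figure D3:**
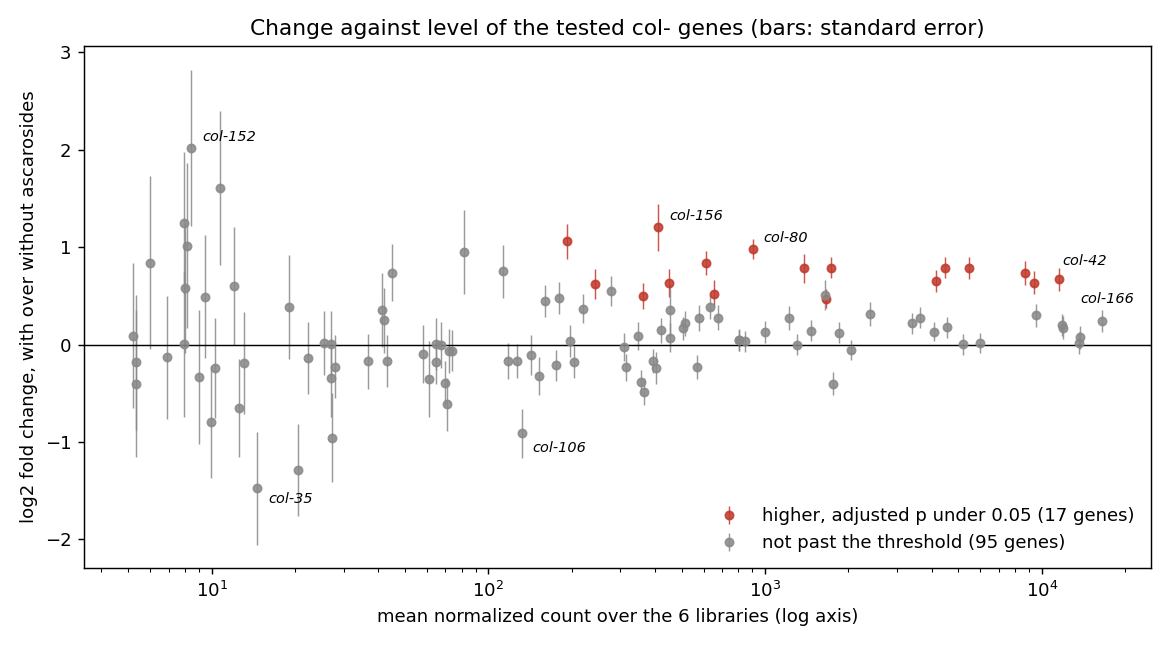
Log2 fold change with over without ascarosides (vertical axis) against the mean normalized count over 6 libraries (log axis) for the 112 tested col- genes. Points are genes, bars are 1 standard error, and red marks the 17 genes called higher; below 50 counts the bars are widest and no gene is red, and no gene below 0 is red.

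By chromosome, 8 of the 26 tested members on V were called higher, 3 of 18 on II, 2 of 10 on III, 2 of 11 on I and 2 of 30 on IV. Over all genes the share called higher was 3.08% on V and 1.44 to 2.12% on the other chromosomes. The calls on V were col-156, col-162, col-160, col-159, col-42, col-147, col-161 and col-12, and the median log2 fold change of tested members there was 0.41. None of the 17 tested members on X was called by limma, and col-170, the 1 that edgeR and DESeq2 each called, was the only 1 at an unadjusted p under 0.05.

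Neighbouring col- genes form 26 adjacent pairs, and in 16 of these both genes were tested. The changes had the same sign in 13 of the 16 pairs (81.2%), against 52.6% of 11428 adjacent pairs of tested protein-coding genes. These pairs are not separate observations, since col-39, col-93, col-145, col-168 and col-169 each stand in more than 1. Among the 13 are col-46 with col-47 and col-159 with col-160, whose exons overlap. In 11 pairs both genes were above 0 and in 2 both were below. Both genes were called higher in 2 pairs, col-39 with col-80 and col-159 with col-160, and 1 gene was called in 4 pairs. Altogether 6 of the 17 called members and 32 of the 112 tested members lay beside another col- gene, and the other 11 called members did not.

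**Figure D4:**
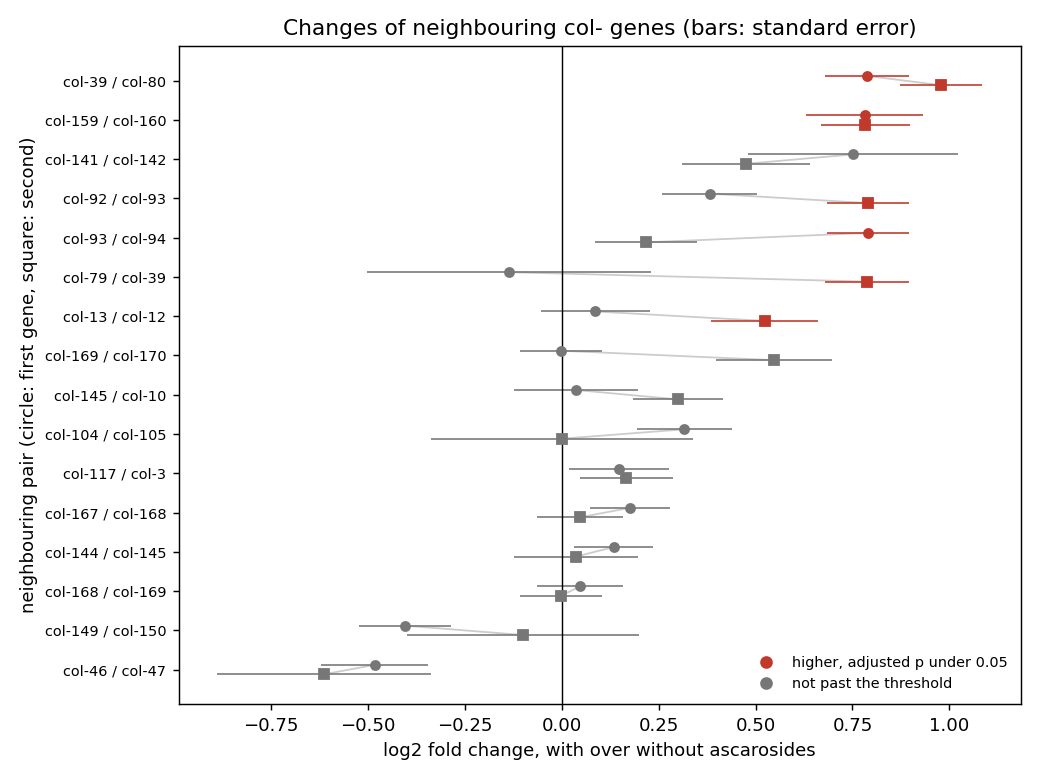
Log2 fold change with over without ascarosides (horizontal axis) for both genes of the 16 adjacent tested col- pairs, ordered by their mean. Circles are the first gene and squares the second along the chromosome, bars are 1 standard error and red marks a called gene; both genes are red in 2 pairs, and 1 gene is red in 4 pairs.

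The cluster of col-79, col-39 and col-80 on chromosome II held 3 genes with unlike levels. Per kilobase of exon, col-79 averaged 24.7 normalized counts and col-39 averaged 4296. The log2 fold change of col-79 was -0.14 (21.0 ± 3.43 counts with and 23.7 ± 7.60 without ascarosides), beside 0.79 for col-39 and 0.98 for col-80. The ratio of col-80 to col-39 counts within a library was 0.194, 0.220 and 0.225 in treated libraries, against 0.176, 0.193 and 0.190 in control libraries, so every treated value was above every control value, by as little as 0.194 against 0.193.

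On chromosome III, col-93 lies between col-92 and col-94, and its fitted change was the largest of the 3. The ratio of col-93 to col-92 was 2.64, 3.33 and 3.31 in treated libraries, against 2.55, 2.31 and 2.12 in control libraries. The ratio of col-94 to col-93 was 0.271, 0.251 and 0.235 in treated libraries, against 0.413, 0.352 and 0.363 in control libraries. Neither ratio overlapped between groups, but both contain col-93, which was called, so they are not separate observations. In most of the 16 tested pairs such ratios did overlap, among them col-141 with col-142, col-145 with col-10 and col-167 with col-168. The flanking genes themselves did not pass the test, with log2 fold changes of 0.38 for col-92 (adjusted p = 0.114, limma) and 0.22 for col-94 (adjusted p = 0.476).

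In the WBcel235 annotation, the adjacent genes col-159 and col-160 share exon bases on the same strand. How reads from those bases were counted is not stated, so the counts of the 2 genes may be incomplete or not fully separable. The ratio of col-160 to col-159 was 3.37, 4.42 and 4.32 in treated libraries, against 4.10, 4.47 and 3.50 in control libraries, and these ranges overlapped. By contrast, the near-identical neighbours col-12 and col-13 differed in their values. Normalized counts of col-12 were 926, 686 and 708 in treated libraries, against 478, 519 and 609 in control libraries, while those of col-13 were 405, 365 and 302, against 326, 312 and 366 (log2 fold change 0.09, adjusted p = 0.831). The ratio of col-12 to col-13 was 2.29, 1.88 and 2.34 in treated libraries, against 1.47, 1.66 and 1.66 in control libraries, with no overlap. Reads that aligned to more than 1 place were not assigned to genes, which leaves these 2 genes measured only where their sequences differ. In the X cluster, the ratio of col-170 to col-169 was 0.210, 0.286 and 0.260 in treated libraries, against 0.157, 0.174 and 0.182 in control libraries.

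Stage-specific members were near or below detection in both groups. The dauer collagen col-2 had 3.37, 0.951 and 2.61 normalized counts in treated libraries, against 0.778, 0 and 3.36 in control libraries. The dauer-associated col-40 had 5.06, 0 and 2.61 in treated libraries, against 0, 1.07 and 0 in control libraries, and col-183 had 0, 1.90 and 0, against 0, 1.07 and 0. These are at most 6 reads in a treated library and 3 in a control library, so no difference was detectable at this depth. The dauer collagen col-6 was not analysed here. The adult collagens col-7 and col-19 reached at most 2 reads in any library. In all, 44 members were below the mean of 5, 18 of them with no more than 3 reads in every library and 5 with 0 in all 6 libraries (col-102, col-126, col-127, col-143 and col-185).

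Members known from other settings did not pass the test. The collagens that respond to the body-size ligand DBL-1 included col-141, with 151, 140.7 and 124 normalized counts in treated libraries, against 112, 45.8 and 105 in control libraries (log2 fold change 0.75, adjusted p = 0.167, limma, and 0.0187 without control library 4). They also included col-142, at 201, 225 and 203 in treated libraries against 149, 128 and 178 in control libraries (0.47, adjusted p = 0.151), and col-41 (12675 ± 982 against 11249 ± 915, log2 fold change 0.17, and -0.0042 under quantile normalization). Thus 0 of these 3 were called by limma, edgeR or DESeq2, which called 2.06 to 2.67% of all genes higher. At an unadjusted p under 0.05, 2 were higher, against 8.05% of all genes tested. Of 3 collagens tied to life span in adults none was called: col-10 averaged 10554 ± 721 with and 8577 ± 728 without ascarosides (0.30, adjusted p = 0.203, and 0.0140 without control library 4), col-144 had a log2 fold change of 0.13 (adjusted p = 0.591) and col-120 had about 5 counts and -0.18. The fit without control library 4 called 1436 genes in the whole table, against 527 with all 6 libraries. The transmembrane collagen col-99, which is not part of the cuticle, averaged 464 ± 70.2 with and 443 ± 79.0 without ascarosides (0.07, adjusted p = 0.880).

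Enzymes that modify, trim and cross-link collagen were not called in either direction. Of 12 listed genes 11 were tested, with a median log2 fold change of -0.0075, beside 0.0019 for all genes. The prolyl hydroxylase subunit gene phy-2 had 5851, 5621 and 3510 normalized counts in treated libraries, against 4934, 2093 and 2814 in control libraries (0.66, adjusted p = 0.156, limma). The protein disulphide isomerase gene pdi-1 had 3822, 4137 and 4106, against 4872, 4719 and 4834 (-0.26, adjusted p = 0.214). Counts of phy-2 overlapped between the groups and those of pdi-1 did not. Every treated library lay below every control library for 2 of the 11, pdi-1 and mlt-7 (-0.16, adjusted p = 0.547), against 9.53% of all genes tested. The reverse held for 0, against 9.78%. The other prolyl hydroxylase subunit, dpy-18, the procollagen protease dpy-31 and the cross-linking dual oxidase bli-3 had log2 fold changes of -0.0075, 0.083 and 0.061. By edgeR and DESeq2 also 0 of the 11 were called, where each called 1.5 to 2.67% of all genes in either direction. At an unadjusted p under 0.05 there was 1 higher, phy-2, and 1 lower, pdi-1, against 8.05% and 7.13% of all genes tested.

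Among 10 tested regulators of cuticle genes, 0 were called by limma, against 2.06% higher and 1.46% lower over all genes tested. Their median log2 fold change was 0.028. The nuclear receptor gene nhr-23, which drives moulting gene expression, had 489, 456 and 535 normalized counts in treated libraries, against 790, 567 and 752 in control libraries (-0.50, SE 0.136, adjusted p = 0.053). Every treated value was below every control value. The 1 regulator at an unadjusted p under 0.05 was nhr-23, where 7.13% of all genes tested were lower. Each of edgeR and DESeq2 called 1 regulator lower, against 1.5% and 2.12% of the genes to which they gave an adjusted p. None of 11 tested moulting genes was called by limma, edgeR or DESeq2. At an unadjusted p under 0.05, 0 were higher and 3 lower, against 8.05% and 7.13% of all genes tested. The median log2 fold change of the 11 was -0.12. Their summed counts were 25417, 30165 and 30931 in treated libraries, against 44464, 29085 and 34618 in control libraries, so control library 4 stood highest and the groups overlapped. These genes include the moulting protease inhibitor gene mlt-11 (-0.42, adjusted p = 0.181) and the apical matrix genes noah-1 (-0.42, adjusted p = 0.185) and noah-2 (-0.39, adjusted p = 0.165). Every treated library lay below every control library for 2 of the 11, mlt-8 and noah-2, against 9.53% of all genes tested. The reverse held for 1, bli-5 (0.53, adjusted p = 0.373), against 9.78%. Moulting genes and cuticle collagens are both known to vary with age within a larval stage, and the part of larval age in the col- values was not tested.

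Cuticle collagens named by mutant phenotype had other values than the col- genes. Of the 6 annular furrow collagens, which form the circumferential grooves, 0 were called higher and 1 lower, against 2.06% and 1.46% of all genes tested. Their median log2 fold change was -0.34, beside 0.11 over the tested col- genes. The 1 called was dpy-3, at 1635, 1758 and 1816 normalized counts in treated libraries, against 2444, 2121 and 2268 in control libraries (-0.39, SE 0.105, adjusted p = 0.049, limma). The call of dpy-3 was lost without control library 6 (0.155), without any 1 of the treated libraries (0.125 to 0.293), with edgeR (0.0607), with robust eBayes (0.0609), with a pseudocount of 0.5 (0.0510), with upper-quartile scaling (0.0505), with no filter (0.0502) and with eBayes without trend. At an unadjusted p under 0.05 there were 0 higher and 5 lower of the 6, against 8.05% and 7.13% of all genes tested. By edgeR 0 were called, where 1.5% of all genes were called lower. By DESeq2 2 were called lower, against 2.12% of the 13224 genes to which it gave an adjusted p. Of the others, dpy-2, dpy-7, dpy-9 and dpy-10 also had every treated library below every control library, with adjusted p of 0.078 to 0.257, and dpy-8 overlapped. Their summed counts were 11654, 12600 and 12374 in treated libraries, against 15700, 13475 and 15798 in control libraries. Of 11 other tested collagens with such names 0 were called by limma, edgeR or DESeq2, with 2 lower at an unadjusted p under 0.05 and a median of -0.16. Every treated library lay below every control library for 4 of these 11, rol-6, rol-8, sqt-1 and sqt-2, and above for 1, dpy-13. Over all genes tested the shares were 9.53% below and 9.78% above. The difference between these groups of collagens was not tested.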

How the data were processed

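RNA from 3 N2 cultures with and 3 without ascarosides was poly(A)-selected, made into libraries with the NEBNext Ultra kit and sequenced in single reads. Per the labels, TopHat2, Bowtie, SAMtools, HTSeq, DESeq and edgeR were among the authors' tools and WBcel235 was the build, whereas the methods name an older one, so no coordinates are given. Versions are not given in the sources used here. The deposited values are a signal, namely gene counts divided by size factors by the authors, and 100% of them were whole multiples of the value of 1 read within a tolerance of 0.01. The file ends in 5 rows outside genes (33.1 to 41.8% of column totals, mostly reads aligned to more than 1 place), which were left out. Of 46726 gene rows 43623 had a symbol in the gene name table and 3103 had none.

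Genes averaging at least 5 were fitted as log2(normalized count + 1) with limma 3.58.1 (R 4.3.3; lmFit, eBayes with trend, two-sided), and p-values were adjusted by Benjamini-Hochberg over 14965 genes. Genes at an adjusted p under 0.05 are called. Fold changes are on the log2(value + 1) scale, which understates low genes. Named are the 12 largest rises and 6 largest falls among called members, the listed genes, the 6 most abundant members, the 2 members nearest the threshold on each side, and called members beside another col- gene with that neighbour. Further members were picked once their values had been seen. The members and lists were chosen with earlier results of these data known. Chromosome, gene order and exon length came from the Ensembl WBcel235 annotation. Other settings tried were pseudocounts of 0.5 and 5, a minimum mean of 50 or none, upper-quartile and quantile scaling, array quality weights, robust eBayes and eBayes with no trend, and each library left out in turn. Whole reads were also tested with DESeq2 1.42.0 and edgeR 4.0.16. The script was tested on simulated data. No promoter or protein sequence was used here, so the planned motif search was not run. Counting error limits members with few reads, and a count of 0 allows up to 3 reads, 2.33 to 3.91 normalized counts by library.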

Additional observations from a re-analysis of the deposited data

How the results depend on the processing

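The median log2 fold change of the tested col- genes lay between 0.066 and 0.15 under every alternative. The number called higher was 16 to 19 under all alternatives that kept the 6 libraries except 1: eBayes without trend gave 0, and then 1 gene was called in the whole table. Leaving out 1 library gave 11 (without treated library 1) to 22 (without control library 4) higher and 0 to 5 lower. The number called lower was 1 with a pseudocount of 5, with no filter, with quantile normalization and with edgeR, 2 with DESeq2 and 3 with array quality weights (col-106, col-149 and col-46). Quantile normalization turned the sign of col-125 (-0.11), col-17 (-0.068) and col-41 (-0.0042), none of them called. Leaving out 1 library turned the sign of 5 of the members named by the rule, none of them called, within ranges of -0.49 to 0.21 for col-120, -0.0228 to 0.0436 for col-125, -0.0079 to 0.20 for col-13, -0.26 to 0.10 for col-79 and -0.0499 to 0.20 for col-99. Of the other values for single named genes, 306 kept direction and side of the threshold with all 6 libraries, 17 lost the call and 12 gained it. With 1 library left out 163 kept both, 11 lost the call and 5 gained it. The causes were not tested. Over all genes 527 were called, 217 without treated library 2 and 1436 without control library 4. No paired analysis was possible because nothing ties a column to a numbered replicate in the labels. Low counts limit the 32 tested members under 50, whose median SE was 0.552.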
